A study of Mus musculus with 8 samples.

Results

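Peaks of the transcription factor KLF13 were examined at 6 families of developmental transcription factor genes, the SOX, PAX, TBX, POU, LHX and sine oculis homeobox genes. Members were the peaks whose assigned gene symbol consists of the family name and a number (Sox1, Pax2, Tbx1, Lhx2, Six5) or, for POU, the class and the member number (Pou2f1). The rule found 90 of the 9506 peaks in the deposited list, assigned to 49 of the 7800 genes that have a peak. The same rule takes 70 protein-coding genes from a RefSeq gene table on the same genome build, GRCm38, so 21 family genes had no assigned peak.

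The cells were HT22, an immortalised mouse line derived from hippocampal neurons, carrying the biotin ligase BirA (genotype HT22-BirA). All were transfected with the pTO-Klf13Bio plasmid, from which KLF13 is made in a form that BirA biotinylates, and chromatin was taken 24 h later. The 4 KLF13 ChSP libraries came from chromatin precipitated on streptavidin, against 4 input libraries of the same transfected cells with no precipitation. Both groups carry BirA and tagged KLF13, so streptavidin capture that does not depend on KLF13 cannot be told apart from KLF13 binding, and the tagged protein adds to whatever KLF13 the cells make themselves. The list gives one fold of ChSP over input and one p per peak over all 8 libraries, both computed by the authors. The labels do not say whether the 4 libraries of a group came from separate cultures. No value per library and no read depth is given there, so no fold below has a replicate error and no comparison could be tested over libraries.

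These families are told apart by their DNA-binding domains: the HMG box of the SOX proteins, the paired box of PAX, the T-box of TBX, the POU domain, and the homeodomains of the LIM (LHX) and sine oculis proteins. They are best known for setting cell identity in the embryo, and many act in the nervous system, where Sox2 and Pax6 mark neural progenitors and Lhx2 is needed for the hippocampus to form. Promoters of such genes are often rich in CpG dinucleotides. KLF13 belongs to the Krüppel-like zinc finger factors, which bind GC-rich sequence such as the GC box and the CACCC box.

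Promoter sequences are shown here as examples, and such windows hold the DNA at only part of the promoter peaks. Each is a 300-base RefSeq window on GRCm38.p6, from 250 bases before to 50 after a transcription start site (TSS). It is written 5′ to 3′ on the strand of the gene. Of the 90 member peaks, 21 (23.3%) overlapped a RefSeq window of their assigned gene, against 51.2% of the other peaks. Capitals mark every match to the GC box GGGCGG or the CACCC box on either strand. In the SOX, POU, LHX and sine oculis families the gene with the highest promoter fold was Sox12, Pou2f1, Lhx3 and Six5. Only windows under a peak are printed for these genes, and Pou2f1 and Lhx3 have others that were not under one.
Sox12, chr2:152397997-152398296, minus strand: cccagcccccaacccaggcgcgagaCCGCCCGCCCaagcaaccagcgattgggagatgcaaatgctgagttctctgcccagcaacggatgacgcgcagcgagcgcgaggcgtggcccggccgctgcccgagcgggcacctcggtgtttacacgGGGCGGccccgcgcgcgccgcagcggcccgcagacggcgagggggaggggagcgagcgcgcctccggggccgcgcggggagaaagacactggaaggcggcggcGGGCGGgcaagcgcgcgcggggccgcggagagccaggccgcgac
Pou2f1, chr1:166002585-166002884, minus strand: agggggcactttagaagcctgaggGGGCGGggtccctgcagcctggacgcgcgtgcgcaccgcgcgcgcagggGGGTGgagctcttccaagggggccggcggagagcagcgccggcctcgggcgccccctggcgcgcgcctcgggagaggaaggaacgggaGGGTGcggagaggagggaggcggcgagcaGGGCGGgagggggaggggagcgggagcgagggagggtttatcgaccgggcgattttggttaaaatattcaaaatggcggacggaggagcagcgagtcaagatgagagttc
Lhx3, chr2:26206526-26206825, minus strand: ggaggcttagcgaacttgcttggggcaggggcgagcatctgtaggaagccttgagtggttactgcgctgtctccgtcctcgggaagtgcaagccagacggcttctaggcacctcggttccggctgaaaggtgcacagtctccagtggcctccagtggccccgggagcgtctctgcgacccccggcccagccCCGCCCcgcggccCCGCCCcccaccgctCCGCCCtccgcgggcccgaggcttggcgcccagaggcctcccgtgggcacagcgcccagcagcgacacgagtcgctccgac
Six5, chr7:19094294-19094593, plus strand: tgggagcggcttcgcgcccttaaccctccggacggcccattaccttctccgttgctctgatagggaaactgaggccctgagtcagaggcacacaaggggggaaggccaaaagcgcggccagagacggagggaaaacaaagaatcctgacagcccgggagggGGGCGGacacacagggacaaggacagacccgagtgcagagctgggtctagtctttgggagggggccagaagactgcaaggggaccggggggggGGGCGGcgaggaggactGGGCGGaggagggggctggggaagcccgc

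Pax2 and Tbx1 had the most peaks of any family gene. Pax2 has 3 RefSeq windows and each lay at least in part under a separate peak. The first, far upstream of the start that the authors' annotation used, held 4 CACCC matches and no GC box. The third lay under the highest promoter fold of the PAX family. Of the 2 RefSeq windows of Tbx1, the one printed lay at least in part under the peak farthest upstream at that gene. The other lay 1521 bp from the nearest Tbx1 peak and held no GC box or CACCC match.
Pax2, chr19:44746351-44746650, plus strand: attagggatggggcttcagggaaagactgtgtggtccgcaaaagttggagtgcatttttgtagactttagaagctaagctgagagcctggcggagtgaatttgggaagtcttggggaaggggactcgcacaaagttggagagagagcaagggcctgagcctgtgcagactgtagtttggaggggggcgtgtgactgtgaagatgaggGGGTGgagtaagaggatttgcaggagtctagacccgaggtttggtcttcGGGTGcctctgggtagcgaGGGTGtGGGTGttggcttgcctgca
Pax2, chr19:44755502-44755801, plus strand: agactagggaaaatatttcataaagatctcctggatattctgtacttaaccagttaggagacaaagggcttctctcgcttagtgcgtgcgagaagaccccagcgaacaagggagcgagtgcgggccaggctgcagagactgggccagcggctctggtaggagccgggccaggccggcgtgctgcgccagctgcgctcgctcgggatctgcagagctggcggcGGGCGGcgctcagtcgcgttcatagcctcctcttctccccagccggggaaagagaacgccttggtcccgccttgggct
Pax2, chr19:44756656-44756955, plus strand: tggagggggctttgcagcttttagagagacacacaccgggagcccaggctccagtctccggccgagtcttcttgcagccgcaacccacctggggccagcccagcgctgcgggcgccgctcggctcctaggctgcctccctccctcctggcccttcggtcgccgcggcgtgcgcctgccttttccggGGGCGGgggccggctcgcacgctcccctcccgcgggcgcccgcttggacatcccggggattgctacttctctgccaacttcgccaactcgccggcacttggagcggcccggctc
Tbx1, chr16:18588850-18589149, minus strand: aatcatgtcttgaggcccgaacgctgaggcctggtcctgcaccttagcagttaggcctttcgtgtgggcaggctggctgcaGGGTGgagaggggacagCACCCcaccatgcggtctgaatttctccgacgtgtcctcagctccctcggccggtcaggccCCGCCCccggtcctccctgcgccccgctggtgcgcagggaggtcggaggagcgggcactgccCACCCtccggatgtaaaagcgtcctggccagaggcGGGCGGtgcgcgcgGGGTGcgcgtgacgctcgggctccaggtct

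For comparison, 3 windows belong to family genes without an assigned peak: Pax5, a B cell factor, Pou1f1, a pituitary factor, and Tbx10. Peaks do lie inside Pax5, away from this window, but were assigned to the gene model 5730488B01Rik. Another Pou1f1 window, also not under a peak, is not printed.
Pax5, chr4:44710645-44710944, minus strand: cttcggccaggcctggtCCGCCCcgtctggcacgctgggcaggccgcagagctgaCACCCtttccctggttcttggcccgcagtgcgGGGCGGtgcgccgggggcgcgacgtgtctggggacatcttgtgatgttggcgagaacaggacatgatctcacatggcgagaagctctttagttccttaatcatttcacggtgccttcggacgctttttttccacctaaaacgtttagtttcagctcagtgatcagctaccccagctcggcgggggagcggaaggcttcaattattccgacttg
Pou1f1, chr16:65520262-65520561, plus strand: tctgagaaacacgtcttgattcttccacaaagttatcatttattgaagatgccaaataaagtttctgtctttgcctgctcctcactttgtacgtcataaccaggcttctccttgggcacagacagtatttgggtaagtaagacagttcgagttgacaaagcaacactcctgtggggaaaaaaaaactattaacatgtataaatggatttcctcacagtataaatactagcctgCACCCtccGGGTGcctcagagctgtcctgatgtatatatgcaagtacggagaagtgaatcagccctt
Tbx10, chr19:3992502-3992801, plus strand: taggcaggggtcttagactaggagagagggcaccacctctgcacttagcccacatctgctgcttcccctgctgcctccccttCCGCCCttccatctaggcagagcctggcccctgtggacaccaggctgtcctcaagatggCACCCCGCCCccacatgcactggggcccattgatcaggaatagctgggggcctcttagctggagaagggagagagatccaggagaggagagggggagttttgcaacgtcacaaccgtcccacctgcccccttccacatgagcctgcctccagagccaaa

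Of the 70 family genes, 49 (70.0%, exact 95% binomial interval 57.9 to 80.4) had an assigned peak, against 33.6% of the 21900 protein-coding genes. A promoter peak, within 1 kb of a TSS by the authors' annotation, was found at 41 of 70 (58.6%, 46.2 to 70.2), against 30.9% of protein-coding genes. At 8 genes the only assigned peaks lay outside 1 kb: Sox17, Pax3, Pax7, Tbx3, Tbx20, Pou2f2, Lhx8 and Six3. A further peak in or within 1 kb of the gene was assigned to D930028M14Rik at Pou2f2 and to Six3os1 at Six3. Several peaks at one gene were frequent in the families. Of 70 genes, 21 (30.0%) had 2 or more peaks, against 5.4% of protein-coding genes, and 10 (14.3%) had 3 or more, against 1.29%. Of the 41 gaps between neighbouring peaks of one gene, 16 were under 1 kb. With only the 4753 peaks of smallest p kept, a peak remained at 18 of 70 family genes (25.7%), against 19.6% of protein-coding genes, and a promoter peak at 15 of 70 (21.4%), against 18.6%. Genes with several peaks then numbered 3 of the 18 (16.7%), against 5.70% of other genes with a peak. The genes are not independent draws, and these intervals cover counting error only.

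**Figure D1:**
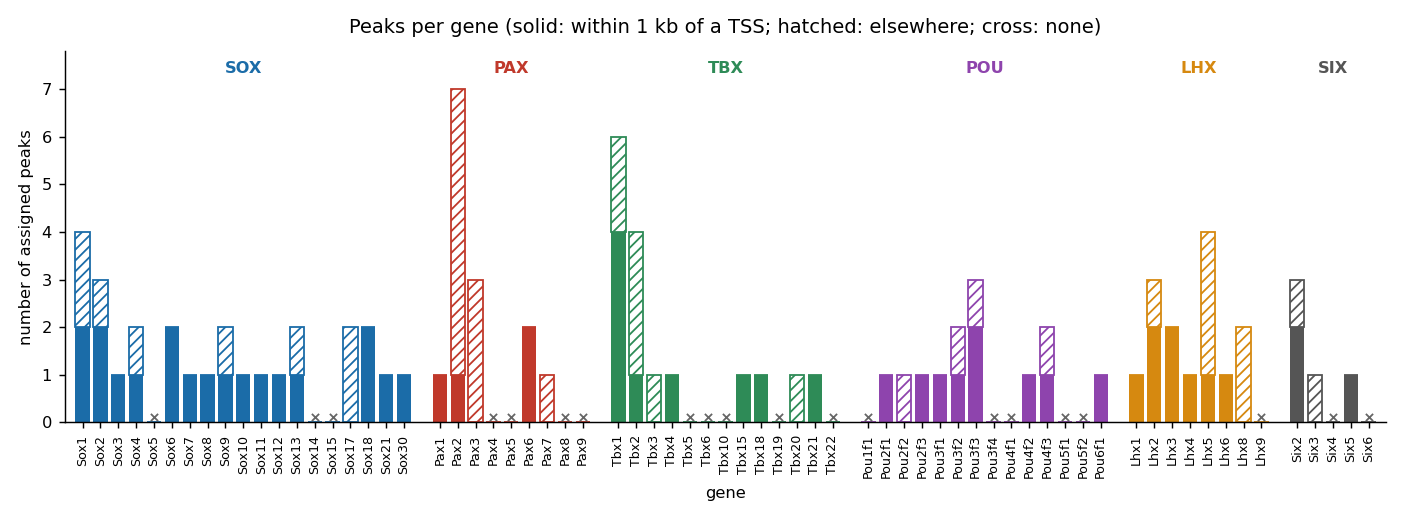
Number of assigned peaks (vertical axis) for the family genes shown (horizontal axis), by family. Solid bars are peaks within 1 kb of a TSS, hatched bars are peaks elsewhere, and crosses mark genes with none. Pax2 with 7 peaks and Tbx1 with 6 stand highest.

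The SOX genes had peaks at 16 of 19 (84.2%) and the LHX genes at 7 of 8 (87.5%). The shares were 4 of 6 (66.7%) for sine oculis, 8 of 13 (61.5%) for TBX, 9 of 15 (60.0%) for POU and 5 of 9 (55.6%) for PAX. The exact intervals of all 6 families overlap, from 60.4 to 96.6% for SOX and 21.2 to 86.3% for PAX. Promoter peaks were found at 15 of 19 SOX genes, 6 of 8 LHX, 3 of 6 sine oculis, 6 of 13 TBX, 8 of 15 POU and 3 of 9 PAX genes.

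The folds themselves were moderate. Member peaks had a median fold of 18.9 (quartiles 14.5 and 23.6), against 21.1 (15.5 and 28.7) over the 9416 other peaks. Of the member peaks, 3 of 90 (3.33%) had a fold of 40 or more, against 765 of 9416 (8.12%) of the others. Among the 4753 peaks with the smallest p were 21 of 90 members (23.3%, exact interval 15.1 to 33.4), against 4732 of 9416 others (50.3%, 49.2 to 51.3). Every member p was at or below 8.61e-06, and the highest adjusted p of a member in the authors' deposited table was 0.00209.

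**Figure D2:**
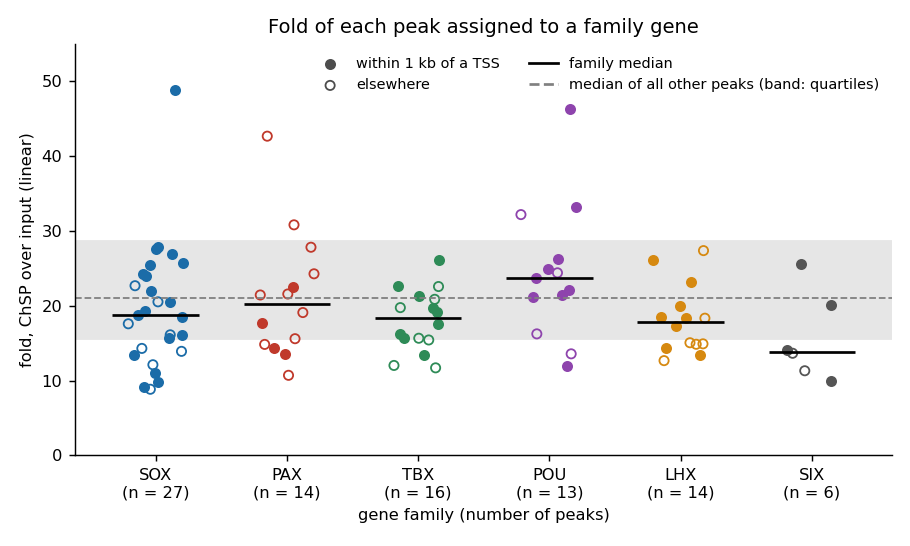
Fold of ChSP over input (vertical axis, linear) for each of the 90 peaks, by family. Filled points lie within 1 kb of a TSS and open points elsewhere, black bars are family medians, and the dashed line and band are the median (21.1) and quartiles of all other peaks; POU has the highest family median, 23.7, and the sine oculis genes (last column) the lowest, 13.8.

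By position, a smaller share of the members lay at promoters. Within 1 kb of a TSS lay 53 of 90 member peaks (58.9%, 48.0 to 69.2), against 7546 of 9416 others (80.1%, 79.3 to 80.9). A TSS lay inside 27 of 90 (30.0%), against 5957 of 9416 (63.3%). Peaks 1 to 3 kb from a TSS made up 11 of 90 (12.2%, 6.26 to 20.8), against 389 of 9416 (4.13%). Distal intergenic peaks made up 14 of 90 (15.6%, 8.77 to 24.7), against 684 of 9416 (7.26%), and 16 of 90 (17.8%, 10.5 to 27.3) lay beyond 10 kb from a TSS, against 1001 of 9416 (10.6%). The PAX genes supplied 7 of the 14 distal peaks and 8 of the 16 beyond 10 kb, and Pax2 alone 5 of each. Without PAX, 7 of 76 member peaks (9.21%) were distal and 8 of 76 (10.5%) lay beyond 10 kb, close to the other peaks. The promoter share without PAX, 49 of 76 within 1 kb (64.5%, 52.7 to 75.1), stayed below the 80.1% of the others. Of the 16 beyond 10 kb, 10 overlapped a RefSeq gene. Peak widths were alike in the middle, with a median of 600 bp in both, and the upper quartile was 700 bp in members, against 900 bp in the others. The list names 1 gene for each peak, and a distal peak need not act on the gene it is listed under.

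**Figure D3:**
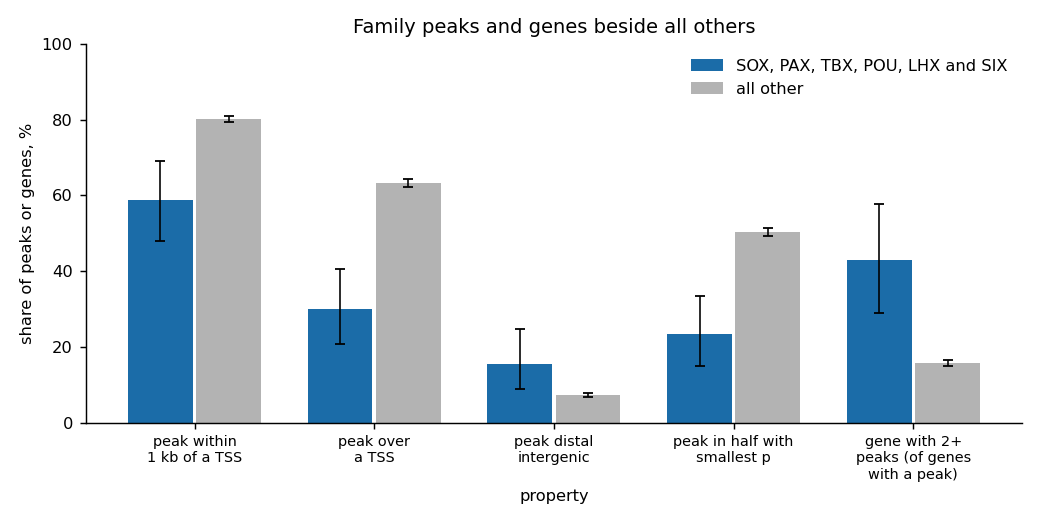
Share of peaks or genes with each property (vertical axis, percent), for the family members (blue, left) and all others (grey, right). Error bars are exact 95% binomial intervals and cover counting error only; among genes with a peak, 42.9% of family genes had 2 or more, against 15.7% of other genes.

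Forkhead and Hox genes, other large families of developmental factors, were set beside the members. In several of these counts forkhead genes lay near the members: 35 of 44 (79.5%) had a peak, 19 of 35 (54.3%) of these had several, and 59.2% of their 71 peaks lay within 1 kb of a TSS. Among the 4753 peaks with the smallest p were 31 of 71 forkhead peaks (43.7%, 31.9 to 56.0). The member share was lower, 21 of 90 (23.3%, 15.1 to 33.4), but the intervals overlap. Hox genes had a peak at 21 of 39 (53.8%), several at 4 of these 21 (19.0%), and 80.8% of their 26 peaks lay within 1 kb of a TSS. Of the Hox peaks, 11 of 26 (42.3%, 23.4 to 63.1) were among those with the smallest p. Over all genes other than the members, 33.5% had a peak and 15.7% of those with a peak had several. Of their peaks, 80.1% lay within 1 kb of a TSS and 50.3% were among those with the smallest p. No difference between these families was tested.

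Among SOX genes the strongest peak was at Sox12 (ENSMUSG00000051817), a SoxC gene expressed in developing neurons and other tissues. Its fold was 48.9 in a 1600 bp peak over the TSS at chromosome 2, 152396801 to 152398400 (the authors' p = 1.44e-21), rank 279 of all 9506 peaks by fold. The other SoxC genes, Sox4 and Sox11, which act as neurons mature, had promoter folds of 20.5 and 22.0. Sox4 had a second peak, 1.58 kb downstream of its TSS, with a fold of 14.3. All 3 SoxC genes therefore carried a promoter peak, and Sox12 had the highest fold of all 90.

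The SoxB1 genes, which keep neural progenitors undifferentiated, held 8 of the 27 SOX peaks. Sox1 had 4 peaks on chromosome 8. They ran from 12395101 to 12395900 over the TSS (fold 27.5, the authors' p = 1.80e-09), from 12396501 to 12397000 (16.1, p = 1.86e-06), from 12397301 to 12397800 (22.7, p = 4.20e-09) and from 12431201 to 12431500 (13.9, p = 1.73e-07). The last lies 35.7 kb downstream, inside the noncoding gene Sox1ot. Sox2 had 3 peaks on chromosome 3. The one over its TSS, 34649501 to 34650200, reached 26.9 (the authors' p = 1.39e-16), the next, 34650401 to 34651100, had 9.10 (p = 3.89e-08), and the third, 34663901 to 34664400, had 12.1 (p = 1.61e-10) at 13.9 kb, inside the noncoding gene Sox2ot. Sox3 had 1 peak with a fold of 25.4. In Sox1 and Sox2 the peak over the TSS had the highest fold of the locus. Of the SoxB2 genes, which oppose SoxB1, Sox21 had a fold of 13.5 and Sox14 had no peak.

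The remaining SOX groups had at most 2 peaks a gene. In SoxE, which directs neural crest and glia, Sox8, Sox9 and Sox10 had promoter folds of 18.5, 15.6 and 19.3, and Sox9 had a further peak of 20.5 at 2.59 kb. The Sox8 peak also covered the RefSeq start of the noncoding gene Cerox1. In SoxF, known from blood vessels and endoderm, Sox7 had 25.8 and Sox18, in 2 peaks, had 24.0 and 9.74. Sox17 had 17.6 at 1.03 kb and 16.1 at -74.1 kb (negative distances are upstream), and none within 1 kb. In SoxD, Sox13 had a promoter fold of 27.9 at chromosome 1, 133423201 to 133424500 with the authors' p = 1.22e-09. Its intronic peak, 133418301 to 133418600, had 8.83 (the authors' p = 2.50e-06), the lowest fold among the 90. Sox6, a cartilage and neuronal subtype factor, had 24.3 and 11.0. The Sox6 peak of 24.3 lay over a RefSeq window of Sox6os and over none of Sox6. Sox30, a male germ cell factor, had 18.7. Sox5, Sox14 and Sox15 had no assigned peak, and the nearest peak lay 467214, 437106 and 21537 bp from each gene.

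PAX peaks lay mostly away from promoters, with 4 of 14 (28.6%) within 1 kb of a TSS and 7 of 14 distal intergenic, but 6 of the 10 outside 1 kb were at Pax2. Of those 6, 2 lay over RefSeq starts of Pax2. Without Pax2, 3 of 7 PAX peaks were within 1 kb of a TSS. Pax2 (ENSMUSG00000004231), a kidney, ear and midbrain-hindbrain factor, alone held 7, spread over 85.5 kb of chromosome 19. The farthest upstream, 44672001 to 44672600 at -84.8 kb, reached 42.7 with the authors' p = 2.73e-16 and ranked 15 by fold among all peaks beyond 10 kb from a TSS. It overlaps the RefSeq start of the noncoding gene model Gm41854. The next, 44684001 to 44684600, had 24.3 (the authors' p = 2.23e-14), followed by 44726001 to 44726600 with 21.6 (p = 3.41e-09) and 44734501 to 44735100 with 14.8 (p = 3.62e-08). These 4 peaks lie outside Pax2 as RefSeq draws it, with Pax2 the nearest protein-coding gene to each.

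The 3 Pax2 peaks nearest the gene matched its 3 RefSeq starts printed above. The peak at 44746401 to 44747000 reached 30.8, with the authors' p = 6.55e-11. Their annotation calls it distal intergenic at -10.4 kb, while RefSeq places a Pax2 start there. The peak at 44755501 to 44755800 had 19.1 (the authors' p = 2.56e-07) and the one at 44756601 to 44757500 had 22.5 (p = 6.03e-11). Within the locus the peak at the main start ranked 4 of 7 by fold. One more peak inside Pax2 or within 1 kb of it was assigned to the gene model 1700039E22Rik and is not among the members.

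Pax3, a neural crest and muscle factor, had 3 peaks on chromosome 1 and none at its promoter. An intronic peak, 78189401 to 78189900, reached 27.8 (the authors' p = 5.29e-11). The others, 78216401 to 78217100 with 21.4 (the authors' p = 2.35e-11) and 78217301 to 78217800 with 10.7 (p = 6.94e-07, the lowest PAX fold), lie at -19.3 and -20.2 kb inside the gene model Gm2102. RefSeq lists Gm2102 as protein-coding, while the authors' annotation calls both of these peaks distal intergenic. Pax7, the paralogue of Pax3, had 1 intronic peak of 15.6 at 11.1 kb. Pax6, the eye and cortical progenitor factor, had promoter folds of 17.7 and 13.5, and Pax1, a factor of the vertebral column, had 14.4. Pax4, Pax5, Pax8 and Pax9 had no assigned peak. Inside Pax5 lay a peak of fold 22.4 at chromosome 4, 44703501 to 44704800, and one of 15.1, both assigned to the gene model 5730488B01Rik.

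**Figure D4:**
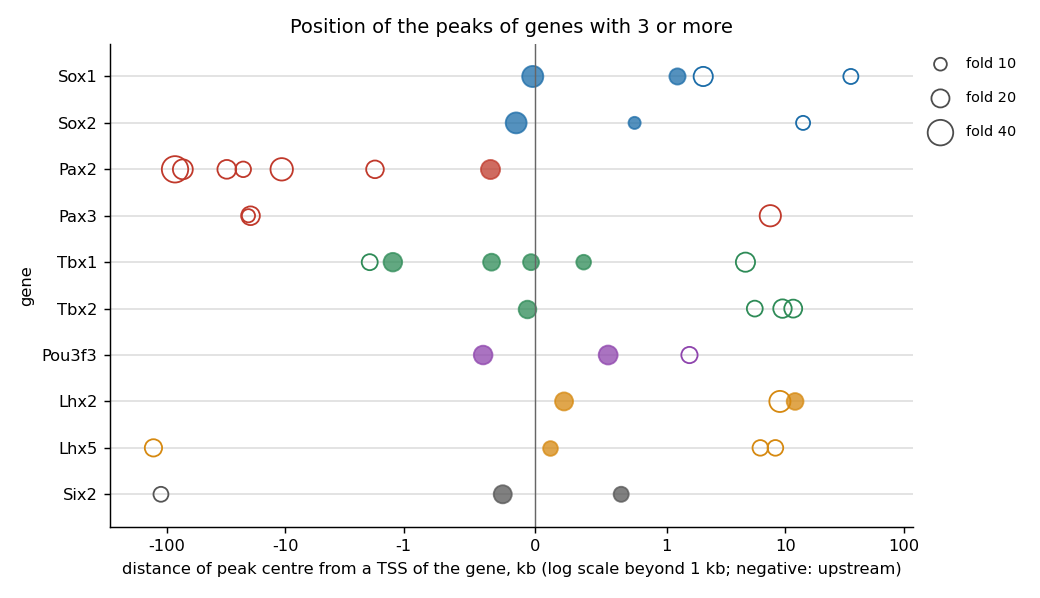
Position of each peak centre (horizontal axis, kb from a TSS of the gene, logarithmic beyond 1 kb, negative upstream) for the 10 genes with 3 or more peaks. Circle area is proportional to fold, filled circles lie within 1 kb of a TSS of any transcript; Pax2 has 6 open circles upstream and Tbx1 has its peaks crowded near the start.

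Tbx1 (ENSMUSG00000009097), the T-box gene of the pharyngeal arches that is lost in DiGeorge syndrome, had 6 peaks within 7.30 kb of chromosome 16. Near its start lay 18586501 to 18586700 with a fold of 13.3 (the authors' p = 8.61e-06), 18586901 to 18587100 with 15.7 (p = 2.61e-06), 18587201 to 18587400 with 17.6 (p = 3.14e-06), 18587901 to 18588500 with 21.3 (p = 1.21e-10) and 18588701 to 18589100 with 15.7 (p = 6.54e-09). Gaps of 100 to 500 bp separate these 5, and 3 of them are 200 bp wide, the smallest width in the list. The peak at 18588701 to 18589100 also lay over a RefSeq window of Gm35369. The remaining peak, 18581801 to 18582900 in the 3′ UTR, had 22.6 (the authors' p = 1.00e-10). Merging peaks less than 1 kb apart leaves Tbx1 with 2 regions.

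Tbx2, a repressor that restrains senescence, had 4 peaks on chromosome 11. They were 85832101 to 85833000 over the TSS with a fold of 19.2 (the authors' p = 3.91e-10), 85837701 to 85838600 in an exon with 15.4 (p = 4.08e-10), 85841801 to 85842400 in the 3′ UTR with 20.9 (p = 6.76e-12) and 85844001 to 85844600 beyond the gene with 19.7 (p = 2.87e-09). The 4 folds lay close together, from 15.4 to 20.9. The neighbouring limb gene Tbx4 had the highest TBX fold, 26.1 at chromosome 11, 85889901 to 85890500 over the TSS of the authors' annotation (p = 1.43e-11). The single RefSeq window of Tbx4 lies 6014 bp from that peak and was not under any.

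The other TBX genes with peaks had 1 each. Promoter folds were 22.7 at Tbx18, 19.7 at Tbx15 and 16.3 at Tbx21, which encodes the T cell factor T-bet. Tbx3, a paralogue of Tbx2, had an exonic peak of 12.0 at 9.07 kb. Tbx20, a heart factor, had the lowest TBX fold, 11.7, at chromosome 9, 24781101 to 24781400 at -6.80 kb (the authors' p = 4.75e-06). Tbx5, Tbx6, Tbx10, Tbx19 and Tbx22 had none. The peak nearest to Tbx6, at 4183 bp, was assigned to Ypel3.

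POU peaks had the highest family median, 23.7 (quartiles 21.2 and 26.3, 13 peaks). Pou2f1 (ENSMUSG00000026565), which encodes the broadly expressed factor Oct1, reached 46.3 in a TSS peak, chromosome 1 from 166001601 to 166003100, with the authors' p = 1.07e-18. Of its 3 RefSeq windows only the one printed above lay under a peak. In the same class, Pou2f3 had a promoter fold of 25.0, and the lymphoid gene Pou2f2 had an intronic peak of 13.6 at 16.8 kb. Pou6f1 had a promoter fold of 33.2.

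The neural class III genes, expressed in the brain, had peaks at 3 of 4. Pou3f2 had a promoter fold of 26.3 and a second peak of 32.2 at 10.4 kb. Pou3f1 had 23.7 in the widest peak of all 90, 2500 bp. Pou3f3 had 3 peaks on chromosome 1: 42696601 to 42696900 with 21.5 (the authors' p = 1.46e-07), 42697201 to 42698200 with 22.1 (p = 5.50e-11) and 42698501 to 42698900 with 16.2 (p = 7.72e-06). They are 300 bp apart and merge into 1 region. Pou3f4 had none.

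In class IV, the sensory neuron genes, Pou4f2 had a promoter fold of 21.2. Pou4f3 had the lowest POU fold, 11.9, in a TSS peak, chromosome 18 from 42394301 to 42394600 (the authors' p = 2.54e-07), and 24.4 at -8.20 kb. Pou4f1 had none, although its RefSeq window had the highest GC share of all 72 family windows, 78.3%. Pou1f1, Pou5f1, which encodes the pluripotency factor Oct4, and Pou5f2 also had none.

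LHX genes lacked a peak only at Lhx9, where the nearest peak lay 7662 bp away. Lhx2 (ENSMUSG00000000247), the hippocampal and cortical selector gene, had 3 peaks on chromosome 2. Those at 38338901 to 38340100 and at 38350801 to 38352000 each covered one of its 2 RefSeq starts, with folds of 20.0 (the authors' p = 2.99e-15) and 17.4 (p = 1.10e-13). They also lay over RefSeq windows of Gm46736 and Gm27197, in that order. The third, 38348001 to 38348600 between them, overlapped Gm27197 as well and had the highest LHX fold, 27.4 (the authors' p = 1.10e-10). Lhx5, which the developing hippocampus also needs, had 4 on chromosome 5. Its TSS peak, 120431801 to 120432200, had 13.3 (the authors' p = 2.08e-07), 120437801 to 120438300 in an intron had 14.9 (p = 8.46e-09), 120439801 to 120440500 in the 3′ UTR had 15.1 (p = 1.58e-13) and 120302201 to 120302700 had 18.3 (p = 9.49e-11). This last lies at -129 kb, with Rbm19 the nearest protein-coding gene.

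The pituitary and motor neuron genes Lhx3 and Lhx4 had promoter folds of 26.1 and 23.1. Lhx3 had another peak of 18.3 within 1 kb of a different start. Lhx1 had 18.5. Lhx6 and Lhx8, factors of forebrain interneurons and cholinergic neurons, had 14.3 at the Lhx6 promoter and, for Lhx8, 14.8 and 12.7 in peaks 100 bp apart. The Lhx8 peak of 12.7, at chromosome 3, 154328701 to 154329000 (the authors' p = 1.79e-06), was the lowest of the family.

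Sine oculis peaks had the lowest family median fold, 13.8 over 6 peaks. The 95% interval of that median overlaps the interval of the POU median, the highest. Six5 (ENSMUSG00000040841) stood above the rest with 25.6 in a TSS peak, chromosome 7 from 19094401 to 19095200, with the authors' p = 6.08e-16. Six2, which maintains kidney progenitors, had 3 peaks on chromosome 17: 85688301 to 85688700 with 20.1 (the authors' p = 9.92e-10), 85687501 to 85687700 with 14.0 (p = 1.42e-06) and 85799901 to 85800400 at -112 kb with 13.6 (p = 3.47e-08). The Six2 peak of 20.1 lay over RefSeq windows of both Six2 and CJ186046Rik. The one at -112 kb lay in Gm4718, over RefSeq windows of Gm4718 and Gm29418. Six3, a forebrain and eye gene, had 11.3 at 2.67 kb. Six4 and Six6 had none, and a peak of fold 24.9 lying 402 bp from Six6 was assigned to 4930447C04Rik.

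Across the 24 paralogue groups with 2 or more genes, 10 had a peak at every gene. Among them were SoxB1, SoxC, SoxE, SoxF, POU class II, Lhx1/5, Lhx3/4, Lhx6/8 and Pax3/7. No share for paralogue groups of other genes was computed, so this count has no background. It stands beside a peak at 70.0% of the single family genes. Related genes and partners outside the rule were also counted, and 15 of 24 had a peak, against 33.6% of protein-coding genes. A promoter peak was found at 14 of these 24, against 30.9% of protein-coding genes. All 4 further LIM homeodomain genes had a promoter peak, with 33.7 at Isl1, 23.2 at Lmx1b, 19.1 at Isl2 and 18.3 at Lmx1a. The LIM partners had one at 4 of 6, with 42.7 at Lmo4 and 23.6 at Ldb1. The T-box relatives Eomes and Mga had promoter folds of 24.2 and 19.2, Tbr1 had 3 peaks of at most 20.9 outside its promoter, and T, the gene of the factor brachyury, had none. The sine oculis partners of the EYA and DACH families had promoter peaks at 2 of 6, Eya2 with 25.6 and Eya4 with 21.1. Sry and Pou2af1 had none, and Sall1 and Sall4 had promoter folds of 27.2 and 21.8.

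RefSeq windows were found for 52 of the 70 genes, 72 windows in all. Of these 72, 21 (29.2%) lay under a peak, against 19.8% of the 32779 windows of other genes. Counted by peak, 21 of 90 member peaks (23.3%) overlapped a window of their own gene, against 4822 of 9416 others (51.2%). The 21 family windows under a peak had a median GC share of 67.3% (quartiles 65.7 and 70.7), against 56.0% (47.0 and 61.2) in the 51 family windows not under a peak. The ratio of observed to expected CpG had a median of 0.789 (0.687 to 0.885 between quartiles), against 0.473 (0.263 to 0.698). The same contrast held across other genes, with GC medians of 68.7% under a peak and 50.0% elsewhere. Windows under a peak were thus richer in GC in the families and in the rest alike.

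**Figure D5:**
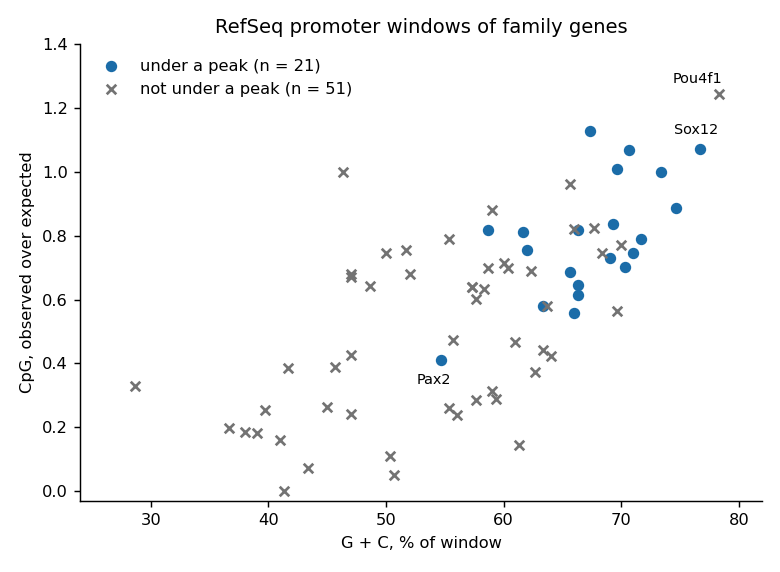
GC share (horizontal axis, percent) and observed over expected CpG (vertical axis) of the 72 RefSeq windows of family genes. Circles lie under a peak (n = 21) and crosses do not (n = 51); circles run from 54.7% GC, at the upstream Pax2 start, to 76.7% at Sox12, while Pou4f1 is a cross at the top right.

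The GC box GGGCGG, searched on both strands with overlaps allowed, was in 17 of 21 family windows under a peak (81.0%). It was in 23 of 51 not under one (45.1%) and in 35.7% of all 32851 windows. Of those 51 windows, 23 belong to genes with no assigned peak, and 11 of these 23 (47.8%) held it. The rest belong to genes with a peak elsewhere, as near as 97 bp at Pou4f2. In other genes the GC box was in 82.4% of windows under a peak, a share close to that of the families. Among windows of other genes not under a peak, 24.1% held it. The longer GGGGCGGGG, each match of which contains a GC box, was in 12 of 21 (57.1%), against 8 of 51 (15.7%) and 11.4% of all windows, and in 32.9% of the windows of other genes under a peak. The CACCC box was in 12 of 21 (57.1%), against 36 of 51 (70.6%) and 57.5% of all. In other genes it was in 4392 of 6490 windows under a peak, against 14455 of 26289 not under one, the opposite order. In the windows printed above, GC box matches numbered 4 at Sox12, 3 each at Lhx3 and Six5 and 2 each at Pou2f1 and Tbx1. The 3 Pax2 windows held 0, 1 and 1, in the order printed. Of the windows without a peak, Pou1f1 had none, with 41.7% GC, while Pax5 and Tbx10 had 2 each. Short GC-rich motifs occur more often in GC-rich windows, and the part of GC content in these counts was not tested.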

How the data were processed

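The study holds 4 KLF13 ChSP and 4 input libraries, grouped by sample title. GRCm38 is the build, and ChIPseeker 1.16.1, HOMER 4.9.1, FastQC 0.11.3 and BWA 0.7.17-r1188 are the tools, in the submitters' processing notes, which state no roles. The file's name gives PePr as the peak caller, and its version and settings are not stated in the sources used here. The authors deposited one peak list over all libraries, with a fold (linear ratio of ChSP over input), a p-value, an adjusted p-value and a score per peak. The columns of fold and p have no descriptive header and were identified by their place and range. The deposited score only rescales the fold, so it was left out. Widths are multiples of 100 bp. Library scaling and depth are unknown.

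Members and lists were chosen with earlier results of these data known, so shares and medians are descriptions without tests. Gene counts use a RefSeq table on GRCm38.p6, matched by gene identifier for 9503 peaks and all 49 member genes. Medians are over peaks. Paralogue groups follow general knowledge of the families.

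Every member gene may be named, except that a few results are not reported here. Coordinates and p are given for genes with 3 or more peaks and the highest and lowest fold of each family. The sequence of Tbx1 replaced that of Tbx4, whose window was not under a peak, a choice made after seeing the values. Forkhead and Hox genes were also added then. The counting functions were tested on simulated data. Versions were scipy 1.17.1, numpy 2.4.6, pandas 2.3.3, matplotlib 3.10.9 and Python 3.11.15.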

Additional observations from a re-analysis of the deposited data

How the results depend on the processing

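No paired analysis was possible because each peak has a single fold for the 8 libraries together, and for the same reason no library could be left out in turn. Of 26 alternatives, 17 stayed within the interval of the reported value or, for counts, within 1.5 times. Keeping only the 4753 peaks with the smallest p left 21 member peaks at 18 of 70 genes (25.7%, against 19.6% of protein-coding genes), 15 genes with a promoter peak (21.4%, against 18.6%), 3 genes with several peaks (16.7% of those with a peak, against 5.70% of other genes), a promoter share of 76.2%, against 90.9% of other peaks, a median fold of 23.7, against 27.7, and a median width of 700 bp, against 800 bp. The promoter share was 71.1% within 3 kb, against 84.3% of other peaks, and the median over the highest fold of each gene was 22.0, against 22.5 in other genes. A peak lay over a RefSeq promoter window at 18 of the 52 genes with one (34.6%, against 21.1% of other genes), an alternative chosen after seeing the data. Merging peaks less than 1 kb apart left 74 regions and 16 genes with several, 32.7% of those with a peak, against 11.2% of other genes.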
